A study of Mus musculus with 10 samples.

Results

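The genes described here are 51 mouse genes of mitotic G2 and M phase, the part of the cell cycle in which a cell prepares for and carries out division, measured in fetal oocytes with and without the TFIID subunit Taf4b. They were taken by name from a fixed list of mitotic kinases, checkpoint proteins, kinetochore proteins, spindle motors and cytokinesis proteins, with the cyclins left out. All 51 were found among the 55536 genes of the count table, all 51 were among the 20317 genes that passed the filter on low counts, and each had at least 10 reads in every library. Bulk RNA was sequenced from 10 libraries of female germ cells at embryonic day E14.5, made of 4 Taf4b-deficient, 4 Taf4b-heterozygous and 2 Taf4b-wildtype libraries. By the labels, deficient animals are infertile, heterozygous and wildtype animals are fertile, and the strain is C57BL/6 for every library. Parents of every litter were heterozygous for the Taf4b-deficiency mutation and homozygous for an Oct4-EGFP transgene (stock B6;129S4-Pou5f1tm2Jae/J), which lights up germ cells, and live cells were sorted by that GFP signal. Each library carries 1 of 3 litter dates in 2019. Nothing in the labels ties a library to its own embryo, so p-values here measure only sample-to-sample spread, which may be technical. Values of a group are always listed from its replicate 1 upward. The comparisons asked which of the genes fell as meiosis began, which stayed on, and whether genotype added to stage.

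Female germ cells of the mouse fetus divide by mitosis until they enter meiosis, in a wave that crosses the ovary over several days, so that cells of one gonad differ in stage. A mitotic cell enters division when Cdk1 is released from the brake that Wee1 puts on it by phosphatases of the Cdc25 family. Aurora and Polo kinases then build the spindle, the checkpoint holds anaphase until kinetochores are attached, and the anaphase-promoting complex, with Cdc20 and Ube2c, marks securin and other proteins for destruction. Many of the same proteins serve the meiotic divisions, which in oocytes come only after a long arrest.

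Read totals ran from 28949924 to 44166320 per library. Taf4b, the check of the labels, stood at 60.8 ± 3.71 CPM (read counts scaled to library size) in deficient libraries, 199 ± 40.3 CPM in heterozygous libraries and 180 ± 38.7 CPM in wildtype libraries (SD, n = 4, 4 and 2). The log2 difference of deficient from heterozygous libraries was -1.71 (adjusted p = 0.0118). Germ cell identity genes were high in every library, with Dazl between 1407 and 2003 TPM (counts scaled to transcript length and library size) and Ddx4 between 415 and 714 TPM. Summed pregranulosa and supporting cell markers ran from 13.2 to 39.7 TPM, with Foxl2 at or under 0.962 TPM, and stromal markers from 3.43 to 8.92 TPM. Blood and macrophage markers summed to between 37.0 and 77.9 TPM in deficient libraries, between 15.9 and 52.7 TPM in heterozygous libraries and between 72.7 and 74.5 TPM in wildtype libraries. The 6 endothelial markers summed to between 35.6 and 182 TPM, nearly all of it Pecam1, which fell along the stage index described next, while Cdh5 stayed at or under 0.0576 TPM.

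How far each library had moved into meiosis was read from a stage index, the mean log2 CPM of 30 meiotic prophase genes minus that of 20 pluripotency genes, none of them among the mitotic genes. The deficient libraries had an index of 0.81, 1.89, -1.23 and 0.41, the heterozygous ones of -1.19, 2.77, 2.46 and 2.34, and the wildtype ones of 0.58 and 0.96. Deficient replicate 3 and heterozygous replicate 1 therefore stood well below the others, and the genotypes overlapped. Deficient libraries averaged 0.47 ± 1.29 and heterozygous ones 1.596 ± 1.86 (SD, n = 4 each; exact permutation test, two-sided p = 0.314, where the smallest possible p is 0.0286). Against the 2 wildtype libraries, at 0.77 ± 0.27, the exact two-sided p was 0.733, with 0.0667 the smallest that 4 against 2 allow. Of the 30 meiotic genes, 29 were lower in deficient than heterozygous libraries (median log2 difference -0.76) and 20 lower than in wildtype ones (median -0.048), with 0 called. A change of the index genes with genotype cannot be told apart from stage here, so stage-adjusted comparisons may remove part of a genotype difference.

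All 51 genes were expressed at E14.5, over a wide span of levels. On the length-scaled TPM scale the highest mean levels over the 10 libraries were those of Ube2c at 619 ± 131 TPM and Cdc20 at 484 ± 90.5 TPM, the enzyme and the activator that work with the anaphase-promoting complex. The checkpoint kinase Bub1 (289 ± 57.9 TPM), the kinetochore protein Spc25 (286 ± 45.0 TPM) and the topoisomerase Top2a (285 ± 20.2 TPM) came next and lay within each other's spread. At the other end stood the proliferation antigen Mki67 (27.4 ± 8.58 TPM), the phosphatases Cdc25b (21.5 ± 3.77 TPM) and Cdc25c (19.3 ± 3.35 TPM) and the minus-end spindle motor Kifc1 (11.9 ± 8.50 TPM). Kifc1 also spanned a wide range, from 1.24 to 27.4 TPM. The summed level of the 51 genes was 6298 to 7480 TPM in deficient, 5681 to 7066 TPM in heterozygous and 6429 to 6502 TPM in wildtype libraries.

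**Figure D1:**
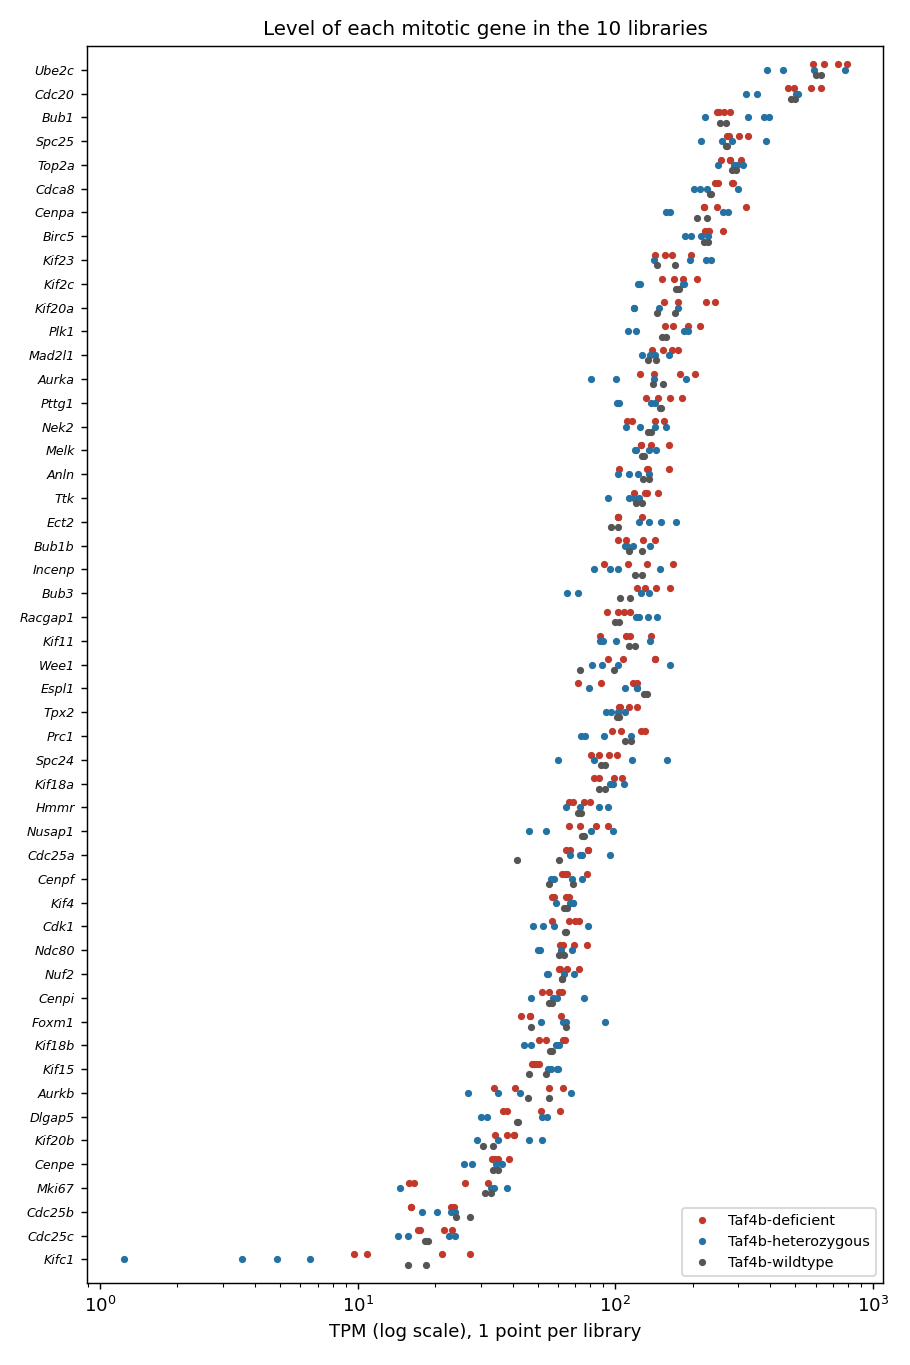
TPM of each of the 51 mitotic genes on a log scale, with 1 point per library, genes ordered by mean level, and colours for Taf4b-deficient, Taf4b-heterozygous and Taf4b-wildtype libraries. Ube2c and Cdc20 sit at the top, and Kifc1 at the bottom has its 4 heterozygous libraries to the left of all others.

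Along the stage index 25 of the 51 genes fell and 0 rose. The slope came from edgeR's quasi-likelihood test with genotype as a covariate, and a gene was called at an adjusted p under 0.05 over all genes tested. Among all genes tested 11.8% were called lower and 13% higher. At an unadjusted p under 0.05 there were 30 of the 51, against 36.6% of all genes, and DESeq2 called the same 25 lower and 1 higher, Bub1. Slopes were negative for 41 of the 51 genes, and their median was -0.12 log2 units per unit of the index, against 0.00013 for all genes tested. The index spanned 4.00 units, and the fitted level at the highest index ranged from 39.1% of that at the lowest for Kifc1 to 72.3% for Cdc25a among the genes that fell. In a bulk library, fewer cells that carry an RNA and less of that RNA per cell cannot be told apart.

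With genotype in the model, the calls depended on the libraries with the lowest index, and for some genes on others. When each library was left out in turn, 15 of the 25 were called in 9 of the 10 fits. Anln and Cenpf were called in 8, Cenpe in 6, Nek2 in 5, Kifc1 in 4 and Cdc25a in 3. Plk1, Cdc20, Pttg1 and Kif18b were called in 2. Without heterozygous replicate 1, edgeR called 0 of the 51 genes, against 1.49% lower and 1.92% higher among all genes. There were 14 with an unadjusted p under 0.05 (18.7% of all genes), 13 of them among the 25, and the smallest adjusted p was 0.0502, for Kif11. All 25 slopes stayed negative in that fit, with a median of -0.18, the same as the -0.18 in the 10 libraries. The same 9 libraries with no genotype term, a fit chosen after seeing the data, gave 25 of the 51 genes called lower, against 12.5% of all genes. Of these, 24 were among the 25 called in the 10 libraries. Without deficient replicate 3, 15 of the 51 genes were called lower, all among the 25, against 7.91% of all genes, and Bub1 was called higher. Leaving out both gave 0 calls by edgeR, for the 51 genes and for all others, with 3 of the 51 at an unadjusted p under 0.05 (7.17% of all genes), and 24 of the 25 slopes were negative. DESeq2 was not run on these reduced sets. The remaining 8 libraries with no genotype term, also chosen after seeing the data, gave 15 of the 51 genes called lower, against 6.18% of all genes. Of these, 14 were among the 25. Without that term, stage and genotype cannot be told apart. The 25 genes were chosen by their slope over the same 10 libraries, so their signs and calls in these subsets are a description and no independent support.

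Within litter dates, the slopes are likewise a description of the same libraries. They were fitted with no genotype term, so stage and genotype cannot be told apart in any of them. January 29 mixed all genotypes, and March 7 mixed deficient and heterozygous libraries. Over the 4 libraries of January 29 the slope of log2 CPM was negative for 24 of the 25 genes that fell, with a median of -0.30. The 4 libraries of March 7 gave 25 of 25, with a median of -0.18. March 1 had 2 libraries, deficient replicate 3 and wildtype replicate 2, so its value is a single difference. That difference was negative for 25 of 25, with a median of -0.20. The other 26 genes had medians of -0.070 on January 29, -0.097 on March 1 and -0.025 on March 7, and the medians over all genes tested lay between -0.0063 and 0.020. With litter date as a term in the edgeR model 17 of the 25 were called, and limma on the TPM values called 9. The shares of all genes called in these fits are not set beside the counts, so a loss particular to these genes cannot be read from them.

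**Figure D2:**
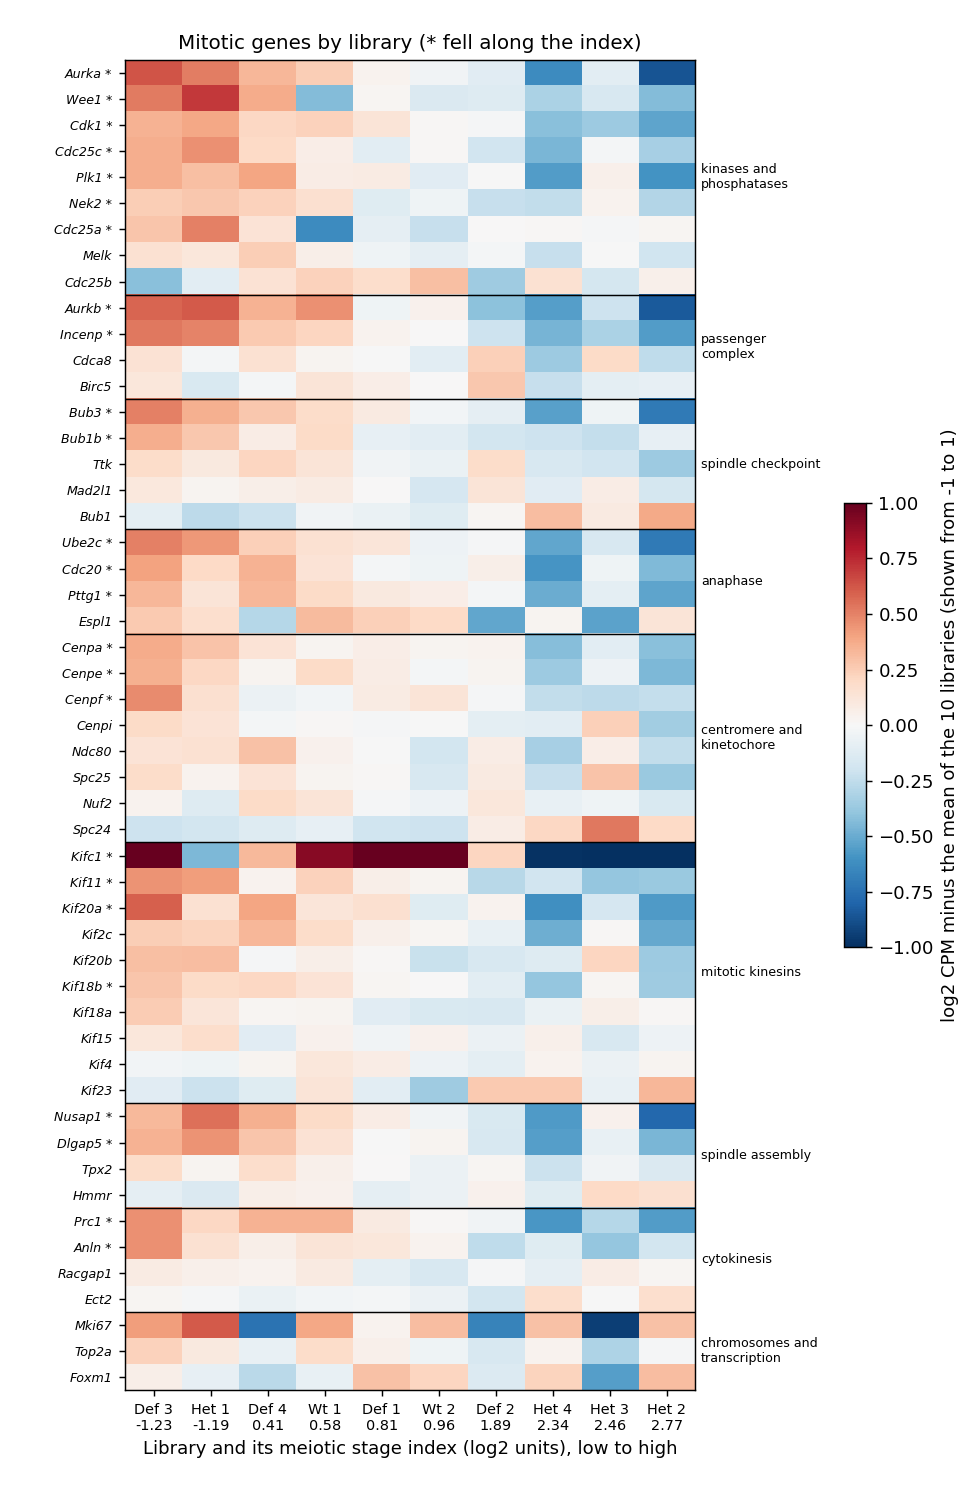
log2 CPM of the 51 mitotic genes minus each gene's mean over the 10 libraries, with libraries ordered from low to high stage index and genes grouped by role; an asterisk marks the genes that fell. Deficient replicate 3 and heterozygous replicate 1, at the low end, are above the mean for most genes, and heterozygous replicates 2 and 4, at the high end, are below it.

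Promoter sequence was available from RefSeq (GRCm38.p6) for 42 of the 51 genes, as 250 bases before the start site and 50 after it. Late cell cycle promoters often hold a cell cycle genes homology region, the motif TTTGAA or TTTAAA, which the MuvB complex binds, and CCAAT boxes, which NF-Y binds. TTTGAA or its reverse complement TTCAAA was found in 69.0% of the 42 promoters, against 18.1% of 27025 promoters of the same length. CCAAT or its reverse complement ATTGG was found in 71.4% of the 42, against 37.9% of the 27025. TTTAAA, which reads the same on both strands, was in 19.0% and 13.2%. Neighbouring motifs can share letters, as a CCAAT and an ATTGG do in Ube2c. A promoter with TTTGAA or TTTAAA and also CCAAT made up 14 of the 19 available among the genes that fell and 11 of the 23 among those not called, a difference that was not tested. A match describes letters in this window and no more. The promoters of the 4 genes with the smallest slope p that had an entry, and of the gene with the largest, are shown so that the arrangement can be seen in genes that fell and in one that stayed level. They are Kif11 (chr19:37376132-37376431, plus strand), Cdk1 (chr10:69352863-69353162, minus strand), Ube2c (chr2:164769679-164769978, plus strand), Aurka (chr2:172370521-172370820, minus strand) and Kif4 (chrX:100625815-100626114, plus strand), each printed from 5′ to 3′ with these motifs, on either strand, in capitals.
Kif11: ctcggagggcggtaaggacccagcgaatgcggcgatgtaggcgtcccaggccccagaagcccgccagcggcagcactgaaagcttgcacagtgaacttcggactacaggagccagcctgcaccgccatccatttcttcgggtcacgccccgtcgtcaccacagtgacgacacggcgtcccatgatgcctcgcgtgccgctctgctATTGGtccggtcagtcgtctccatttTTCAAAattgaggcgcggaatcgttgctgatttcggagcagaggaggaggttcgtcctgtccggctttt
Cdk1: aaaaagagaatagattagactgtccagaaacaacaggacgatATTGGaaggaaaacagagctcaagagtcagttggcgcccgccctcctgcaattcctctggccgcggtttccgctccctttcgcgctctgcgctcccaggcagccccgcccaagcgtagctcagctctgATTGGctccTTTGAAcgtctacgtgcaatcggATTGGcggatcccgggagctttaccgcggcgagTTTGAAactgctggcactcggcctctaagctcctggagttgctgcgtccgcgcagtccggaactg
Ube2c: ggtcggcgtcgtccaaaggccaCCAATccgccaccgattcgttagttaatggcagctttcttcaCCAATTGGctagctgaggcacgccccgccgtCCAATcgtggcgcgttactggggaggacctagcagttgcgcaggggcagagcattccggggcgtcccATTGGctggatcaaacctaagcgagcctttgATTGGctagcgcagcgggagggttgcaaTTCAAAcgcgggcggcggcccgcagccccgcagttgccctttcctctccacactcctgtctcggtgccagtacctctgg
Aurka: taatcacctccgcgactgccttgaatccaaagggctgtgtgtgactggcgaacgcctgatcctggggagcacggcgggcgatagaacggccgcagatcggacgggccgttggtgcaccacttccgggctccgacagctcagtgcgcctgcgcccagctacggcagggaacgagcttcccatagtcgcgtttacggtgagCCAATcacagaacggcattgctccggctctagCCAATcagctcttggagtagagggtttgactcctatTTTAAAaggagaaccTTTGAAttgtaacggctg
Kif4: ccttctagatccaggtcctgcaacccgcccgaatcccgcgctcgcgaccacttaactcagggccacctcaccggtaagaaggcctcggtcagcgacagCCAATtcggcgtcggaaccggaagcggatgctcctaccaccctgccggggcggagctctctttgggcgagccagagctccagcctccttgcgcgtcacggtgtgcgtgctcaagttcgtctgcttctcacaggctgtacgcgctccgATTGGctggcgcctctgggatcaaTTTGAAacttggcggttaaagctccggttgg
The start site lies 50 bases from the 3′ end of each. In Kif11, Cdk1, Ube2c and Kif4 an ATTGG stands a short way upstream of the last TTTGAA or TTCAAA, and in Aurka both CCAAT boxes precede TTTAAA and TTTGAA.

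Of the 9 kinases and phosphatases that control entry into mitosis, 7 fell. Cdk1, the kinase that drives entry, measured 159.7, 145, 186 and 169 CPM in the deficient libraries, 191, 101, 113 and 109 CPM in the heterozygous ones, and 172 and 147 CPM in the wildtype ones. Its highest libraries were heterozygous replicate 1 and deficient replicate 3, those with the lowest index, and its lowest were the other 3 heterozygous libraries. The slope was -0.19 log2 units per unit of the index (SE 0.031, adjusted p = 0.00159). Wee1, the kinase that holds Cdk1 inactive, fell as its target did, with a slope of -0.25 log2 units per unit of the index (SE 0.038, adjusted p = 0.00108). It measured 198, 179, 280.2 and 252 CPM in the deficient libraries, 318, 144, 174 and 157 CPM in the heterozygous ones, and 145 and 176 CPM in the wildtype ones. The same low-index pair was highest, and both wildtype libraries lay below all 4 deficient ones.

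Among the phosphatases that oppose Wee1, Cdc25a and Cdc25c were called and Cdc25b was not. Whether their slopes differ was not tested. Cdc25a, at -0.12 per unit, and Cdc25c, at -0.19, fell, with adjusted p of 0.0444 and 0.0107. When each library was left out in turn, Cdc25a was called in 3 of 10 fits and Cdc25c in 9. Over the January 29 libraries the slope of Cdc25a was positive, at 0.27. Cdc25b, the member of this role with the largest slope p, measured 37.7, 26.1, 25.0 and 36.8 CPM in the deficient libraries, 31.0, 34.6, 29.5 and 37.0 CPM in the heterozygous ones, and 39.3 and 41.2 CPM in the wildtype ones. Its wildtype libraries were the highest, both other genotypes overlapped, and its slope was 0.040 log2 units per unit of the index (SE 0.058, adjusted p = 0.658), with a 95% interval of -0.088 to 0.17. Aurka, which acts at centrosomes and spindle poles, had a slope of -0.27 (adjusted p = 0.00287), and its fitted level at the highest index was 47.2% of that at the lowest. Plk1, the Polo kinase of centrosomes and kinetochores, had -0.16 (adjusted p = 0.0407), and Nek2, which separates centrosomes, had -0.13 (adjusted p = 0.0255). Melk, a kinase of dividing progenitor cells, was not called at -0.069 (adjusted p = 0.161).

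The 4 subunits of the chromosomal passenger complex split evenly. Incenp, the scaffold that holds the complex together, had the smallest slope p of the 51 genes. It measured 237, 200.2, 333 and 278 CPM in the deficient libraries, 327, 157, 186 and 168 CPM in the heterozygous ones, and 269 and 233 CPM in the wildtype ones. Deficient replicate 3 and heterozygous replicate 1 were highest, heterozygous replicates 2 to 4 were lowest, and the genotypes overlapped. The slope was -0.25 log2 units per unit of the index (SE 0.029, adjusted p = 0.000228), and the fitted level at the highest index was 50.0% of that at the lowest. Aurkb, the kinase subunit, fell with a slope of -0.32 log2 units per unit of the index (SE 0.049, adjusted p = 0.00116). Birc5 (survivin) and Cdca8 (borealin), which bring the complex to the centromere, were not called, with slopes of 0.018 (adjusted p = 0.726) and -0.016 (adjusted p = 0.832). Cdca8 measured 223, 263, 247 and 248 CPM in the deficient libraries, 221, 188, 255 and 174 CPM in the heterozygous ones, and 228 and 208 CPM in the wildtype ones. Its low and high values both came from libraries with a high index, and the 95% interval of its slope was -0.11 to 0.082.

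In the spindle checkpoint 2 of 5 genes fell. Bub3, an adaptor that carries checkpoint kinases to kinetochores, measured 221, 195, 295 and 250.4 CPM in the deficient libraries, 265, 127, 201 and 142 CPM in the heterozygous ones, and 236 and 204 CPM in the wildtype ones. Heterozygous replicates 2 and 4 were lowest and deficient replicate 3 highest, and the slope was -0.21 log2 units per unit of the index (SE 0.045, adjusted p = 0.00745). Bub1b (BubR1), a subunit of the checkpoint's inhibitory complex, fell with a slope of -0.14 (adjusted p = 0.0104). Bub1, the kinase with the related name, ran the other way but was just outside the threshold, at 0.11 (adjusted p = 0.0547). Its levels were 489, 519.9, 479 and 442 CPM in the deficient libraries, 427, 668, 547 and 634 CPM in the heterozygous ones, and 499.8 and 472 CPM in the wildtype ones, so that the 2 highest libraries were heterozygous replicates 2 and 4, where Bub3 was lowest. Ttk (Mps1), the kinase at the head of the checkpoint, had -0.071 (adjusted p = 0.165). Mad2l1 (Mad2), the protein that binds Cdc20, measured 208, 227, 223 and 216 CPM in the deficient libraries, 212, 184, 218 and 192 CPM in the heterozygous ones, and 219 and 184 CPM in the wildtype ones. All 10 libraries lay in a narrow band, and the slope of -0.022 (adjusted p = 0.675) had a 95% interval of -0.095 to 0.051.

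Of the 4 anaphase genes 3 fell, including both with the highest levels of the set. Ube2c, the ubiquitin-conjugating enzyme of the anaphase-promoting complex, measured 339.8, 311, 443 and 369 CPM in the deficient libraries, 422, 192, 281 and 218 CPM in the heterozygous ones, and 348 and 303 CPM in the wildtype ones. The low-index pair was again highest, heterozygous replicates 2 and 4 were lowest, and the slope was -0.22 log2 units per unit of the index (SE 0.039, adjusted p = 0.00251). Cdc20, the activator of that complex, had -0.14 (adjusted p = 0.0397), and Pttg1 (securin), the inhibitor of separase, had -0.13 (adjusted p = 0.0390). Both were called in 2 of the 10 fits that left out each library in turn, against 9 for Ube2c. Espl1 (separase), which cuts cohesin, was not called at -0.11 (adjusted p = 0.226) and measured 479, 284, 488 and 333 CPM in the deficient libraries, 458, 446, 282 and 414 CPM in the heterozygous ones, and 508 and 467 CPM in the wildtype ones. Its low values were in deficient replicates 2 and 4 and heterozygous replicate 3, in no order of the index. Mki67, Foxm1 and Top2a, described below, were lowest in the same libraries.

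Of the 8 centromere and kinetochore genes 3 fell. Cenpa, the histone H3 variant that marks centromeres, measured 257, 251, 317 and 268 CPM in the deficient libraries, 299, 184, 227 and 183 CPM in the heterozygous ones, and 249 and 249 CPM in the wildtype ones. All 4 deficient libraries were above both wildtype ones, heterozygous libraries spanned both, and the slope was -0.15 log2 units per unit of the index (SE 0.032, adjusted p = 0.00860). The kinetochore motor Cenpe and the kinetochore protein Cenpf fell, with slopes of -0.13 (adjusted p = 0.0273) and -0.12 (adjusted p = 0.0195). Cenpi, a constitutive centromere protein, was not called at -0.070 (adjusted p = 0.260). The 4 subunits of the Ndc80 complex, which couples kinetochores to microtubules, were all outside the calls: Ndc80 had -0.069 (adjusted p = 0.263), Spc25 -0.039 (adjusted p = 0.590), Nuf2 0.00813 (adjusted p = 0.888) and Spc24 0.11 (adjusted p = 0.0663). Nuf2, the flattest of them, measured 68.3, 74.5, 70.8 and 78.7 CPM in the deficient libraries, 63.1, 61.9, 66.9 and 65.3 CPM in the heterozygous ones, and 75.5 and 66.4 CPM in the wildtype ones. The 4 deficient libraries were higher than the 4 heterozygous ones, and the wildtype values fell in and just below the deficient range. Spc24 had its 3 highest levels in CPM in heterozygous replicates 2 to 4, at 86.8, 109 and 87.2 CPM. On the TPM scale heterozygous replicate 4 was instead its lowest library, at 59.7 TPM.

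Mitotic kinesins, the motors that move spindle microtubules and chromosomes, numbered 10, and 4 fell. Kif11, which slides spindle poles apart, measured 282, 224, 371 and 278 CPM in the deficient libraries, 363, 209.8, 208 and 237 CPM in the heterozygous ones, and 318 and 276 CPM in the wildtype ones. Deficient replicate 3 and heterozygous replicate 1 were highest and heterozygous replicates 2 and 3 lowest, and the slope was -0.21 log2 units per unit of the index (SE 0.028, adjusted p = 0.000507). Kif18b, which trims microtubule ends, had -0.12 (adjusted p = 0.0440), and Kif20a, a motor of the central spindle, had -0.17 (adjusted p = 0.00967). Kifc1, the minus-end motor that draws spindle poles together, was the gene nearest to the threshold from within, at -0.34 (adjusted p = 0.0497). Kif2c, a microtubule-depolymerising motor of centromeres, was nearest from outside, at -0.13 (adjusted p = 0.050005). Kif4, a chromosome-bound motor, was the flattest of all 51 genes. It measured 152, 135, 142 and 148 CPM in the deficient libraries, 141, 147, 139 and 148 CPM in the heterozygous ones, and 157 and 139 CPM in the wildtype ones. Every library lay between 135 and 157 CPM, and the slope of 0.00156 had a 95% interval of -0.066 to 0.069. A processed pseudogene, Kif4-ps, could share some of its reads. Kif15, which backs up Kif11, had -0.059 (adjusted p = 0.189), and Kif18a, which damps chromosome movement, had -0.068 (adjusted p = 0.160). Kif20b, of cytokinesis, had -0.12 (adjusted p = 0.0571). Kif23, the motor subunit of centralspindlin, was at 0.10 (adjusted p = 0.151), the third positive slope of this size beside Bub1 and Spc24.

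**Figure D3:**
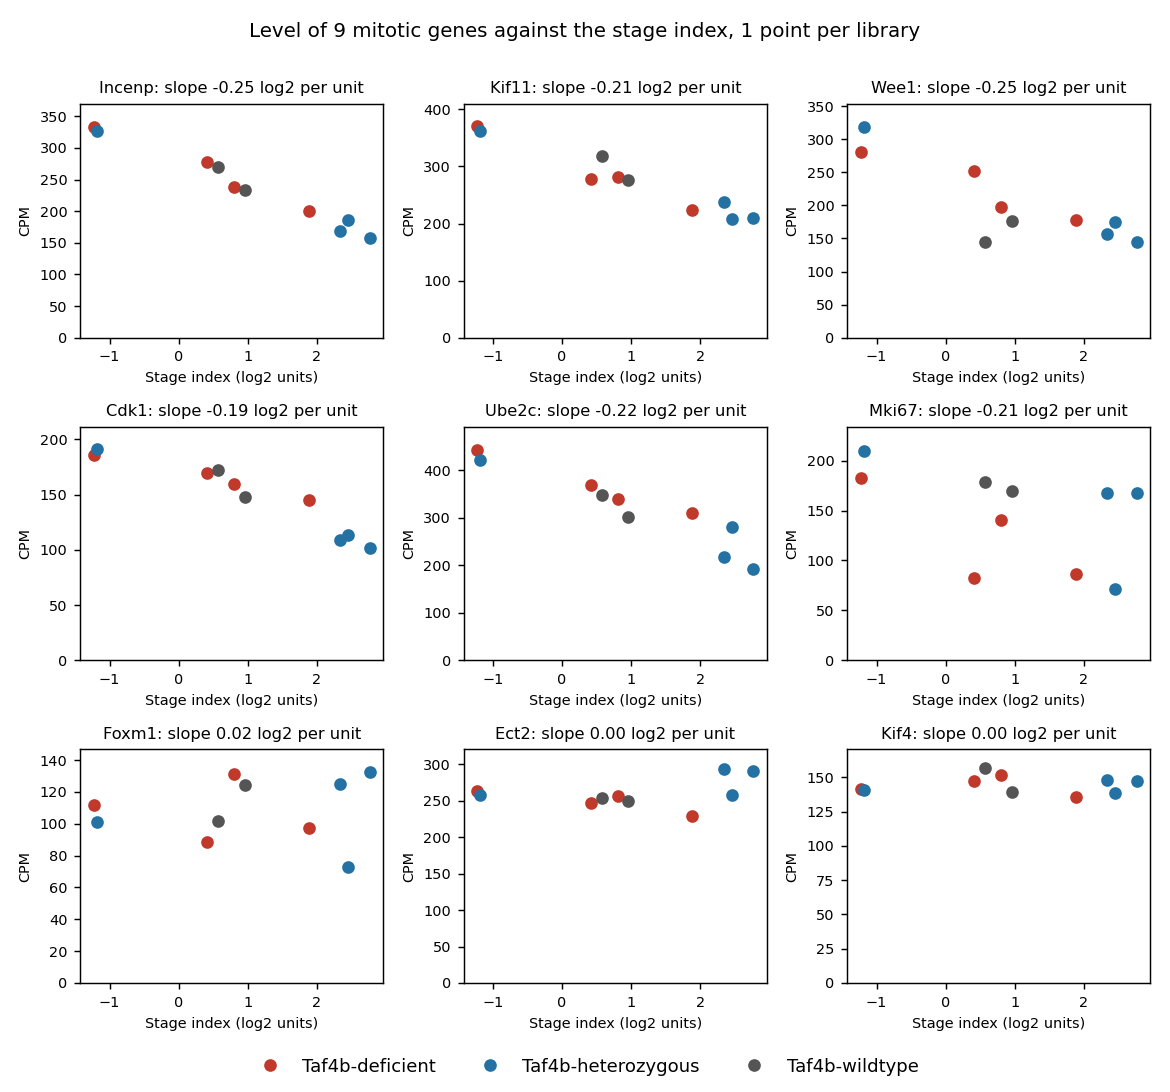
CPM of 9 mitotic genes against the stage index, with 1 point per library and colours for the genotypes. Incenp, Kif11 and Cdk1 decline from the libraries near an index of -1.2 to those above 2, and Kif4 lies level between 135 and 157 CPM.

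Of the 4 spindle assembly genes 2 fell. Dlgap5 (HURP), which stabilises the microtubules that reach chromosomes, measured 67.4, 60.7, 86.3 and 82.1 CPM in the deficient libraries, 92.3, 49.3, 64.2 and 46.2 CPM in the heterozygous ones, and 75.0 and 69.0 CPM in the wildtype ones. Heterozygous replicates 2 and 4 were lowest and the low-index pair highest, and the slope was -0.20 log2 units per unit of the index (SE 0.042, adjusted p = 0.00633). Nusap1, a microtubule-bundling protein, fell with -0.23 (adjusted p = 0.0147). Tpx2, the activator of Aurka, had -0.049 (adjusted p = 0.247). Hmmr, a spindle-pole protein, measured 137, 149.9, 136 and 151 CPM in the deficient libraries, 131, 162, 166 and 134 CPM in the heterozygous ones, and 149.9 and 139 CPM in the wildtype ones. Its groups overlapped, and its slope was 0.056 (adjusted p = 0.272).

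Of the 4 cytokinesis genes 2 fell. Prc1, which bundles the midzone microtubules, measured 199.8, 183, 257 and 239 CPM in the deficient libraries, 216, 127, 153 and 125 CPM in the heterozygous ones, and 238 and 189 CPM in the wildtype ones. Heterozygous replicates 2 and 4 were lowest and deficient replicate 3 highest, and the slope was -0.18 log2 units per unit of the index (SE 0.036, adjusted p = 0.00494). Anln (anillin), the scaffold of the contractile ring, fell with -0.14 (adjusted p = 0.0145). Ect2, the exchange factor that switches on the ring, was level at 0.00336 (adjusted p = 0.951), with 257, 229, 264 and 247 CPM in the deficient libraries, 257, 291, 258 and 293 CPM in the heterozygous ones, and 254 and 249.6 CPM in the wildtype ones. Its highest libraries were heterozygous replicates 2 and 4, and all heterozygous values lay above both wildtype ones. Racgap1, the partner of Kif23 in centralspindlin, had -0.023 (adjusted p = 0.647).

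None of the 3 genes of chromosomes and transcription was called by edgeR, and 1 had an unadjusted p under 0.05, Mki67. DESeq2 called 0 of them too. Mki67, which coats mitotic chromosomes and is the usual marker of proliferation, measured 140.4, 86.2, 183 and 82.1 CPM in the deficient libraries, 209.7, 168, 71.2 and 168 CPM in the heterozygous ones, and 179 and 169.5 CPM in the wildtype ones. Its 3 low libraries were deficient replicates 2 and 4 and heterozygous replicate 3, and its slope was -0.21 log2 units per unit of the index (SE 0.095, adjusted p = 0.128). Foxm1, a transcription factor of late cell cycle genes, measured 131, 97.5, 112 and 88.7 CPM in the deficient libraries, 101, 133, 73.0 and 125 CPM in the heterozygous ones, and 102 and 124 CPM in the wildtype ones. The same 3 libraries were its lowest, and its slope was 0.019 log2 units per unit of the index (SE 0.069, adjusted p = 0.870), with a 95% interval of -0.13 to 0.17. Top2a, which untangles chromosomes, had -0.073 (adjusted p = 0.177) and was lowest in the same 3 libraries, as was Espl1. Those 3 libraries also stood apart in Gm23935, an RNA gene, at 454, 141 and 87.4 CPM against at least 4146 CPM in the other 7. Without them, in a fit chosen after seeing the data, Mki67 was called lower (slope -0.10, adjusted p = 0.0184) and Foxm1 higher (0.11, adjusted p = 0.0255). In that fit 33 of the 51 genes were called lower and 2 higher. The share of all genes called in it is not set beside these counts, so no gain particular to the 51 genes can be read from them. The part of these libraries' difference in the slopes was not tested further.

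**Figure D4:**
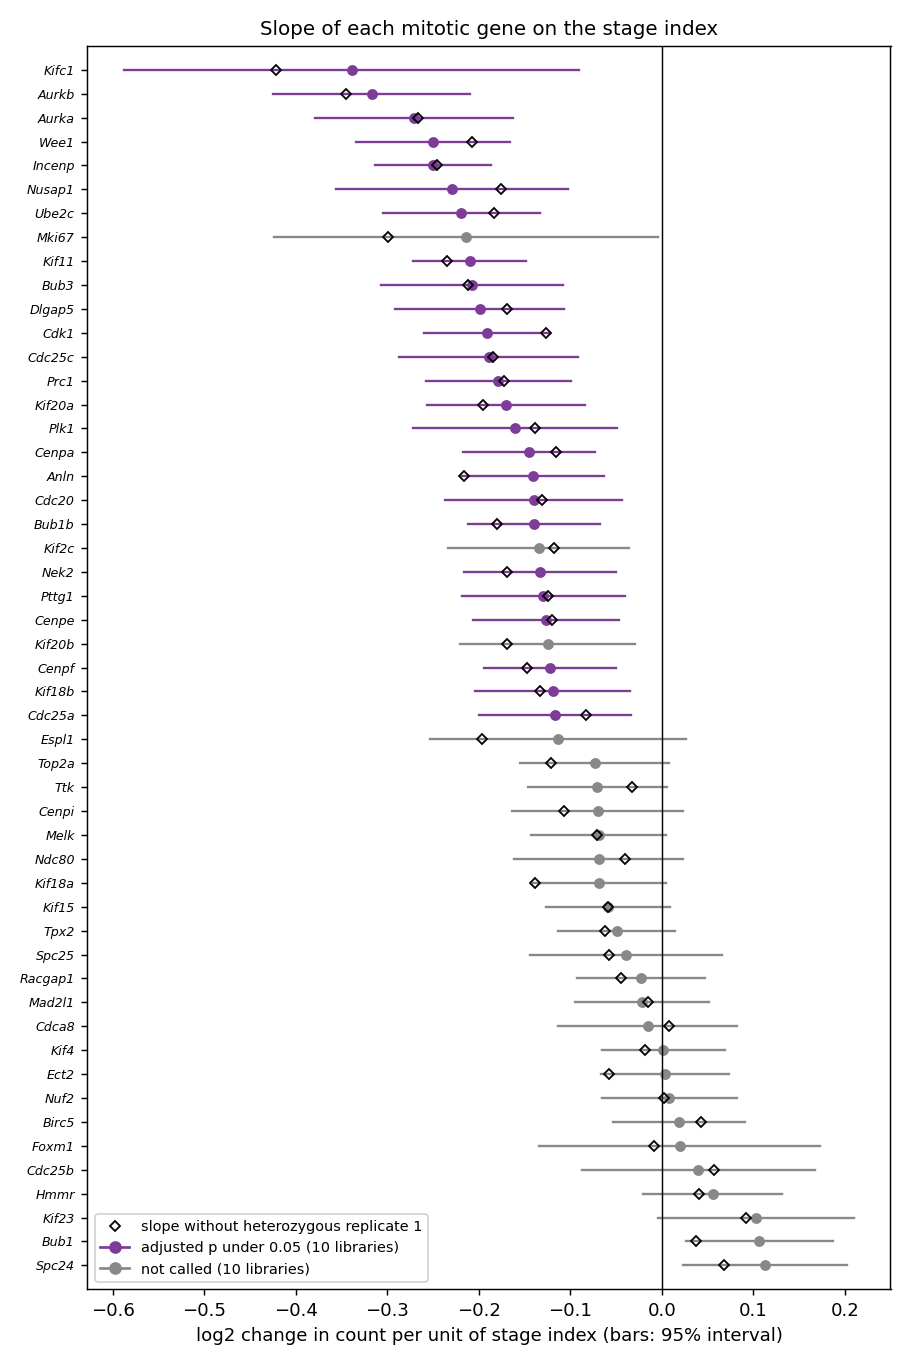
Slope of each mitotic gene on the stage index in log2 units, with 95% intervals, in purple for the 25 genes that fell and grey for the rest; open diamonds give the slope without heterozygous replicate 1. Filled points run from -0.34 for Kifc1 to 0.11 for Spc24, and the diamonds of the 25 genes stay below 0.

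Genotype gave no call among the 51 genes by edgeR. In simulated data that test recovered 0% of 1.2-fold and 8% of 1.5-fold changes between deficient and heterozygous libraries, so small differences could be missed. Between deficient and heterozygous libraries 0 of 51 were called, against 0.0148% of all genes tested. There were 6 with an unadjusted p under 0.05, against 11.9% of all genes, and DESeq2 called 1, Kifc1. The median log2 difference was 0.19 for the 51 genes and -0.054 for all genes tested, and it was 0.29 for the 25 genes that fell along the index and 0.0098 for the other 26. With the stage index in the model the count stayed at 0 of 51, against 0.0345% of all genes (0.0246% higher), with 5 at an unadjusted p under 0.05 against 11.8% of all genes, and Kifc1 again the 1 gene called by DESeq2. The median then was 0.069, against -0.017 for all genes. For the 25 genes that fell it was 0.14, and 39 of the 51 differences lay closer to 0 with the index than without it. Deficient libraries had higher fitted levels for 24 of those 25 genes before the index was added and for 18 after it. For the other 26 genes the median with the index was 0.010. The 25 were chosen by their slope in these libraries, and deficient libraries had a lower mean index than heterozygous ones. A positive difference that shrinks with the index follows in part from that choice and is no independent support.

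Against wildtype the medians lay nearer 0. Deficient against wildtype libraries gave 0 of 51 calls by edgeR, as for all genes (0%), 1 gene at an unadjusted p under 0.05 against 3.66% of all genes, and 0 by DESeq2. The median moved to 0.022 with the stage index in the model, against 0.045 without it. The stage-adjusted count was 0 of 51 against 0.00492%, with 2 at an unadjusted p under 0.05 (6.86% of all genes) and 0 by DESeq2. Those 2 were the opposed regulators of Cdk1, Cdc25a at 0.47 and Wee1 at 0.40 (adjusted p = 0.652 for both). Cdc25a measured 126, 134, 162 and 147 CPM in the deficient libraries, 190.3, 136, 132 and 135 CPM in the heterozygous ones, and 86.4 and 114 CPM in the wildtype ones, and both wildtype values lay below all others. Deficient libraries against the mean of heterozygous and wildtype, weighted equally, gave 0 of 51 against 0.00492%, with 2 at an unadjusted p under 0.05 (4.31% of all genes) and 0 by DESeq2. With the stage index that comparison gave 0 of 51 against 0.00492%, 3 at an unadjusted p under 0.05 (7.2%) and 0 by DESeq2. Heterozygous against wildtype libraries gave 0 of 51 against 0.00492%, with 2 at an unadjusted p under 0.05 (8.3%), and DESeq2 called Kifc1. The comparisons share libraries, so they are not independent of each other.

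Nor did the slope on stage differ with genotype beyond the test. The interaction of the deficient genotype with the index gave 0 of 51 by edgeR against 0% of all genes, 0 at an unadjusted p under 0.05 against 1.87% of all genes, and 0 by DESeq2. The differences in slope ran from -0.16 to 0.11 log2 units per unit of the index, as wide as many of the slopes themselves.

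In CPM, deficient and heterozygous libraries did not overlap for 3 of the 51 genes, against 5.97% of all genes. These were Birc5, Nuf2 and Kifc1, all higher in deficient libraries. Deficient and wildtype libraries did not overlap in CPM for 4 (Wee1, Cdc25a, Cdc25b and Cenpa), against 12.6%. Heterozygous and wildtype libraries did not overlap in CPM for 6, against 15.8%. On the TPM scale, Birc5 and Nuf2 overlapped in the first comparison, and Wee1 and Cenpa in the second. None of the 3 counts exceeds its share among all genes.

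Kifc1 had the largest difference between genotypes. It measured 24.9, 12.1, 34.1 and 12.96 CPM in the deficient libraries, 7.60, 3.93, 1.67 and 5.24 CPM in the heterozygous ones, and 19.6 and 21.3 CPM in the wildtype ones. All 4 heterozygous libraries lay below all the others, while deficient and wildtype libraries overlapped, at 21.02 ± 10.53 CPM in deficient libraries, 4.61 ± 2.48 CPM in heterozygous libraries and 20.4 ± 1.26 CPM in wildtype libraries (SD, n = 4, 4 and 2). The lowest, heterozygous replicate 3, had 76 reads. Within their genotypes the lowest libraries were deficient replicates 2 and 4 and heterozygous replicate 3, those low in Gm23935. Deficient replicate 4 was below deficient replicate 1 although its index was lower, against the order of the slope. Without the 3 libraries low in Gm23935, in the fit chosen after seeing the data, Kifc1 was still called lower along the index. The part of these libraries in its slope was not tested further. The log2 difference of deficient from heterozygous libraries was 2.19 (SE 0.46, adjusted p = 0.287), and 1.82 with the stage index (95% interval 1.01 to 2.63, adjusted p = 0.198). DESeq2 gave 1.85 with the index (adjusted p = 7.05e-05), and over 23 alternatives the difference ran from 1.37 to 2.13 with adjusted p from 7.05e-05 to 0.999. Kifc1 lies at chr17:33875659-33890661, minus strand in GENCODE M21 on GRCm38, and Kifc5b, a closely related gene of the same chromosome, can share its reads, so its counts are uncertain. Kifc5b itself was at 4.94, 5.77, 7.23 and 4.06 CPM in the deficient libraries, 5.94, 5.41, 3.63 and 5.38 CPM in the heterozygous ones, and 5.28 and 8.36 CPM in the wildtype ones. Its groups overlapped, with a stage-adjusted difference of 0.017 between deficient and heterozygous libraries (adjusted p = 0.985). Blood and macrophage markers summed to 37.0 to 77.9 TPM in deficient and 15.9 to 52.7 TPM in heterozygous libraries, with Csf1r at most 2.37 TPM and Hbb-y listed at 0 in 8 of the 10, and 9 of their 14 tested genes had an unadjusted p under 0.05 in the stage-adjusted comparison. Their part in the Kifc1 difference was not tested.

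The next genes by stage-adjusted p were Kif20a and Prc1, both of the central spindle. Kif20a measured 239, 219.7, 325 and 282 CPM in the deficient libraries, 239, 145, 191 and 141 CPM in the heterozygous ones, and 234 and 198 CPM in the wildtype ones, with heterozygous replicates 2 to 4 lowest and the groups just overlapping. The stage-adjusted difference of deficient from heterozygous libraries was 0.39 for Kif20a (95% interval 0.13 to 0.66, adjusted p = 0.293) and 0.32 for Prc1 (0.073 to 0.56, adjusted p = 0.321). Without heterozygous replicate 1 and without the index, 4 genes were called between these genotypes, Kifc1 at 2.60, Kif20a at 0.79, Prc1 at 0.74 and Cdk1 at 0.65 (adjusted p between 0.0433 and 0.0478). All 4 were higher in deficient libraries, and 1.53% of all genes were called higher in that fit, against 0.00984% in the 10 libraries. The 3 heterozygous libraries that remain are those with the highest index.

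**Figure D5:**
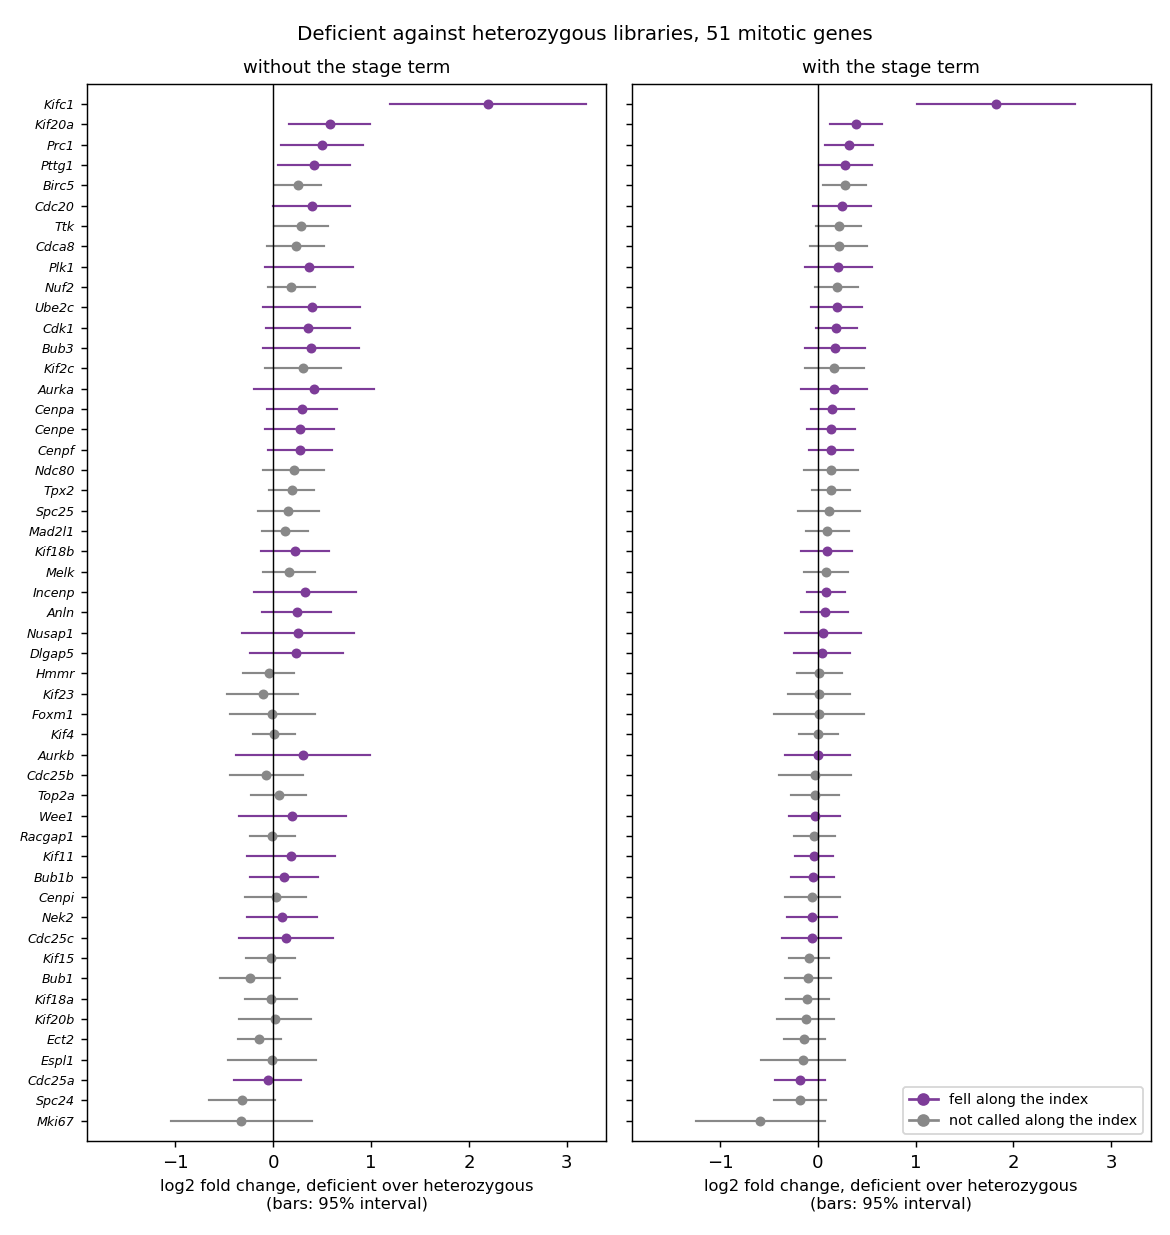
log2 fold change of deficient over heterozygous libraries for the 51 mitotic genes with 95% intervals, without the stage index on the left and with it on the right, in purple for genes that fell along the index. The median is 0.19 on the left and 0.069 on the right, and Kifc1 stands apart at 2.19 and 1.82.

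Other genes of the cell cycle, taken from lists that do not include the 51, were called lower along the stage index more often than higher. Among all genes tested 11.8% were called lower and 13% higher, so the share that rose was below that of all genes in each list. Of 70 further mitotic genes 22 fell and 6 rose, with a median slope of -0.048. Among them Cdca5 (sororin), which protects cohesion, had a slope of -0.31 (adjusted p = 0.000331), the scaffold Iqgap3 -0.29 (adjusted p = 0.000499) and the shugoshin Sgo2a -0.27 (adjusted p = 0.000599). Cenpq, a constitutive centromere protein, rose at 0.25 (adjusted p = 0.000586). The other 5 that rose, named after their values were seen, were Cenpk, Arpp19, Dsn1, Mis12 and Cenpw. Of 38 genes of S phase and DNA replication 12 fell and 3 rose, with a median of -0.060. Of 22 MuvB and B-Myb regulators 5 fell and 1 rose: Mybl2, the B-Myb factor that switches on late cell cycle genes, had -0.26 (adjusted p = 0.00115), and Rbl2 (p130), a pocket protein of resting cells, had 0.20 (adjusted p = 0.0349). Without heterozygous replicate 1 these counts were 2 lower of the 70, 1 lower and 2 higher of the 38, and 0 of the 22, against 1.49% lower and 1.92% higher among all genes in that fit.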

How the data were processed

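The submitters' processing notes name Trim Galore 0.5.0 and FastQC 0.11.5 for the reads, HISAT2 2.1.0 and SAMtools 1.9 for alignment, and GRCm38 as the build. By those notes the authors' deposited counts per gene are featureCounts output (Subread 1.6.2), and their deposited TPM values are from StringTie 1.3.3b. Which strand setting was used, and which annotation, is not given in the sources used here, so reads of the 12 listed genes with an exon overlap on the opposite strand (among them Ube2c, Kif20a, Kif4 and Prc1) cannot be told apart from those of the partner; Foxm1 and Top2a overlap other genes on their own strand. A table of the authors' own comparisons was not used here.

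Counts entered the tests unaltered; 55450 of 55536 identifiers were found in GENCODE M21. Genes were kept with filterByExpr (20317), scaled by TMM and tested with edgeR 4.0.16 quasi-likelihood models over all 10 libraries in R 4.3.3, since wildtype had 2 libraries, with Benjamini-Hochberg adjustment over all genes tested and a threshold of 0.05. SE and 95% intervals come from the F statistic of that test. CPM uses the TMM scale, and log2 CPM a prior count of 2. Alternatives were DESeq2 1.42.0, limma 3.58.1 on log2(TPM + 0.1) and log2(TPM + 1), other scalings and filters, litter date, a replicate block, other indices and leaving out libraries; fits without the libraries low in Gm23935, and those without the low-index libraries that also drop genotype, were chosen after seeing the data. The gene test was tried on simulated data, with 50 changed genes per size. Between deficient and heterozygous libraries it recovered 0% of 1.2-fold, 8% of 1.5-fold and 82% of 2-fold changes. With the stage index the shares were 0%, 6% and 74%. Slopes of 0.1, 0.2, 0.3 and 0.5 log2 units per unit of the index were recovered in 2%, 10%, 58% and 92%. Small differences between genotypes could therefore be missed. No library pair looked like a duplicate (chi-square per degree of freedom of at least 9.61 in 45 pairs).

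The 51 genes, the other lists and the index were chosen with earlier results of these data known. The naming rule took, in each role, the genes with the smallest and largest slope p, Cdk1, Mki67, Foxm1, Wee1, the 3 genes with the smallest stage-adjusted p and up to 4 further mitotic genes. Per-library values of Cdc25a, Bub1, Spc24 and Kifc5b were added after their values were seen.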

Additional observations from a re-analysis of the deposited data

Results flagged for a closer look

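In 7 of the 102 groups of 4 libraries examined (51 genes in deficient and in heterozygous libraries), 1 library stood apart from the other 3 beyond Dixon's 95% critical value. Chance gives about 1 in 20 such groups. In the heterozygous libraries it was replicate 1, the one with the lowest stage index of that genotype, each time. It had 191 CPM of Cdk1 against 101 to 113 CPM in the others, 190.3 CPM of Cdc25a against 132 to 136 CPM, 327 CPM of Incenp against 157 to 186 CPM, and 347 CPM of Cenpf against 259 to 263 CPM. In the deficient libraries replicate 3, with the lowest index, had 173 CPM of Cenpe against 139 to 143 CPM. Replicate 1 had 175 CPM of Ttk against 204 to 209 CPM, and replicate 2 had 299 CPM of Kif23 against 230.4 to 232 CPM.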

How the results depend on the processing

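The count of 25 genes that fell was 24 with DESeq2 size factors or upper quartile scaling and 25 in DESeq2. It was 9 with limma at either TPM pseudocount, 0 without both low-index libraries, 15 there with no genotype term, 25 without heterozygous replicate 1 with no genotype term (24 of them among the 25), and 0 to 28 when each library was left out in turn. None of the 25 was called in all 10 of those fits, and 15 were called in 9. Calls among all genes, in either direction, ran from 682 to 5744 over the same fits. Shares of all genes are given above for the fits without low-index libraries, and the other counts in this section stand without one. Genes called higher numbered 2 with at least 10 reads in every library, with limma at both pseudocounts, with no genotype term and without the libraries low in Gm23935, 1 in DESeq2, with the meiotic list alone, without both low-index libraries with no genotype term and without heterozygous replicate 1 with no genotype term, and 0 to 1 when each library was left out.

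The replicate numbers do not pair the samples by the labels, and same-numbered libraries had correlations of deviations between -0.42 and 0.38 over 8 pairs. With the number as a replicate block the count was 4 lower, and the signs turned for Cdca8 (0.0031), Mad2l1 (0.0049), Spc25 (0.0017) and Foxm1 (-0.025).

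Kifc1 made the 1 call between deficient and heterozygous libraries, with and without the stage index, under no filter, in DESeq2 and without the libraries low in Gm23935, and the 1 between heterozygous and wildtype libraries under no filter and in DESeq2. Leaving out each library gave 0 to 4 calls between deficient and heterozygous libraries. The cause was not tested for any of these.

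Over the 51 slopes and 26 alternatives, 1055 of the values kept sign and side of the threshold, 186 lost the call, 34 gained one and 51 turned sign. Of the turned values 40 were within 0.05 of 0 and 11 were not. Turned slopes were Kif4 -0.0099 with litter date; Cdca8 0.024, Mad2l1 0.022, Kif15 0.0065 and 0.0064, Ect2 -0.016 and Racgap1 0.035 and 0.034 in limma; Kif4 -0.0072 and Ect2 -0.0044 with the pluripotency list alone; Birc5 -0.017, Nuf2 -0.018 and Kif4 -0.00033 with no genotype term; and Nuf2 -0.0022 without the libraries low in Gm23935. Without both low-index libraries they were Cdc25b -0.34, Cdca8 0.029, Cenpf 0.0071, Nuf2 -0.081, Kif4 -0.13 and Ect2 -0.10. With no genotype term as well they were Cdc25a 0.075, Cdc25b -0.14, Birc5 -0.083, Nuf2 -0.10 and Kif4 -0.046, and without heterozygous replicate 1 and no genotype term Birc5 -0.064, Nuf2 -0.062, Kif4 -0.022 and Foxm1 -0.010. Leaving out each library gave Kif4 -0.018 to 0.015, Birc5 -0.0027 to 0.042, Cdc25b -0.012 to 0.079, Nuf2 -0.0039 to 0.016, Cdca8 -0.046 to 0.0075, Ect2 -0.057 to 0.022 and Foxm1 -0.016 to 0.052. The cause of these changes was not tested. The 2 wildtype libraries limit every comparison with that genotype.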
